A study of Mus musculus with 16 samples.

Results

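The ventricles of nulliparous female mice lacking natriuretic peptide receptor 1 (Npr1-/-) were compared with those of nulliparous wild-type females (Npr1+/+). The comparison took the 8 arrays titled as nulliparous of a series of 16: 4 knockout and 4 wild-type arrays, each with the RNA of 1 independent mouse. The other 8 arrays held ventricles of 2-week lactating Npr1-/- and Npr1+/+ females, 4 of each, and serve here only to show where the nulliparous levels lay. All mice were female, no treatment was given in the labels, and the sources used here give no age, strain or construction of the allele. The extract protocol names ventricular tissue, so each sample held every cell type of the ventricles.

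Npr1 encodes the guanylyl cyclase receptor of atrial and B-type natriuretic peptide, the hormones that heart muscle releases when its walls are stretched. Binding of either peptide makes the receptor produce cyclic GMP, which relaxes vessels, promotes salt excretion and restrains the growth of heart muscle cells. In fat cells the same pathway is known for promoting lipolysis. Mice without Npr1 are known for raised blood pressure and enlarged hearts, so the nulliparous comparison asks what the loss of the receptor does to ventricular transcripts before any pregnancy.

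RNA was labelled with Cy3 and hybridised to one-colour Agilent arrays. A level is given throughout as the log2 of a probe's signal less the array's 75th percentile, so a level of 0 equals that percentile, and levels of different genes are not compared because each probe has its own brightness. The arrays had probes for 21154 genes, and 14058 were tested, namely those detected well above background in every mouse of 1 or more of the 4 groups. A change is the difference of group means, knockout minus wild-type, in log2 units with its standard error (SE). A gene was called at an adjusted p under 0.05 by limma, with Benjamini-Hochberg adjustment over all 14058 genes. The nulliparous arrays had a 75th percentile signal of 165 to 284, and 48.2% to 58.6% of probes were well above background over the 16 arrays. Every group sat at its own places on each slide, so place and group cannot be told apart.

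One array stood apart from its label. Knockout replicate 4 was the highest or the lowest of the 8 nulliparous arrays for 53.3% of genes, against 10% to 34.8% for the other 7. Over 4750 genes whose 8 lactating arrays all lay apart from the other 7 nulliparous arrays, it lay nearer the lactating mean for 3850 (81.1%) and inside the lactating range for 2352 (49.5%). The same count for each of the other 7 arrays, over 2340 to 2443 genes, gave 2.01% to 8.43% nearer the lactating mean. The gene sets differ: for those 7, knockout replicate 4 was among the arrays that had to lie apart from the lactating ones. For the complement gene C1qa, a macrophage marker, knockout replicate 4 had a level of 2.34, the other nulliparous knockouts 0.49 to 0.74 and the nulliparous wild-types 0.49 to 0.70, while the 8 lactating arrays ran from 2.57 to 3.16. Its label was kept, the cause was not tested, and results are given with and without this array.

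**Figure D1:**
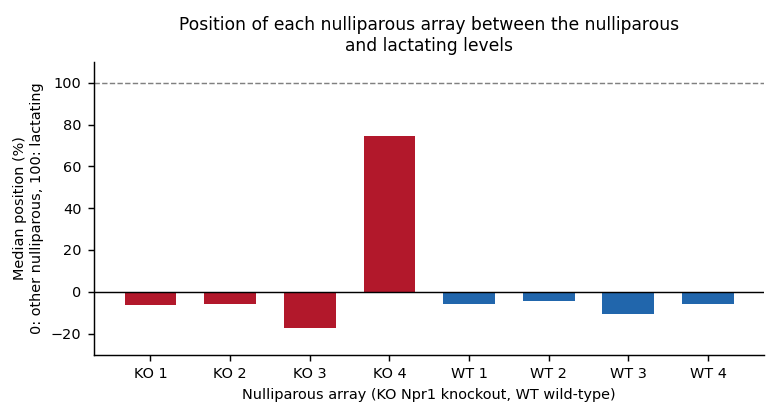
Median position of each nulliparous array, in percent of the way from the mean of the other nulliparous arrays (0) to the mean of the lactating arrays (100, dashed), over the genes whose lactating arrays all lay apart from the other 7 nulliparous arrays. Knockout replicate 4 lay at 74.5% and the other 7 arrays between -17.1% and -4.52%. Each array has its own set of genes, and for those 7 knockout replicate 4 is part of the reference mean.

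Few ventricular transcripts were called as different between the genotypes in nulliparous mice. With all 8 arrays 14 genes were called, or 0.0996% of those tested, of which 10 were higher in the knockouts (0.0711%) and 4 lower (0.0285%). Among the rises were Tchhl1 and Tchh, which encode filament-associated proteins of the hair follicle and epidermis, and Plaat1, a phospholipase and acyltransferase of lipid metabolism. The 4 genes that fell were the adipocyte genes Cfd and Cidec, the growth factor Igf2, and Dcun1d3, which acts on cullin neddylation. Without knockout replicate 4, 18 genes were called (0.128%), 11 higher (0.0782%) and 7 lower (0.0498%), and 10 genes were called in both comparisons.

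The spread between mice set which changes could be called. The median SE of a change was 0.14 with 8 arrays and 0.128 without knockout replicate 4, and the smallest change that was called was 0.607 with 8 arrays and 0.388 without that array. Across genes the median SD was 0.236 among the 4 knockouts, 0.156 among the 3 left without replicate 4, and 0.158 among the wild-types. At an unadjusted p under 0.05, limma gave 1214 genes with 8 arrays (8.64%) and 1346 without knockout replicate 4 (9.57%). Knockout and wild-type arrays did not overlap for 565 genes (4.02%), of which 452 were higher in the knockouts (3.22%) and 113 lower (0.804%). This held without knockout replicate 4 for 1324 genes (9.42%), 1050 higher (7.47%) and 274 lower (1.95%). By chance 3 arrays lie apart from 4 more often than 4 from 4, so these shares are not compared with those of 8 arrays.

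**Figure D2:**
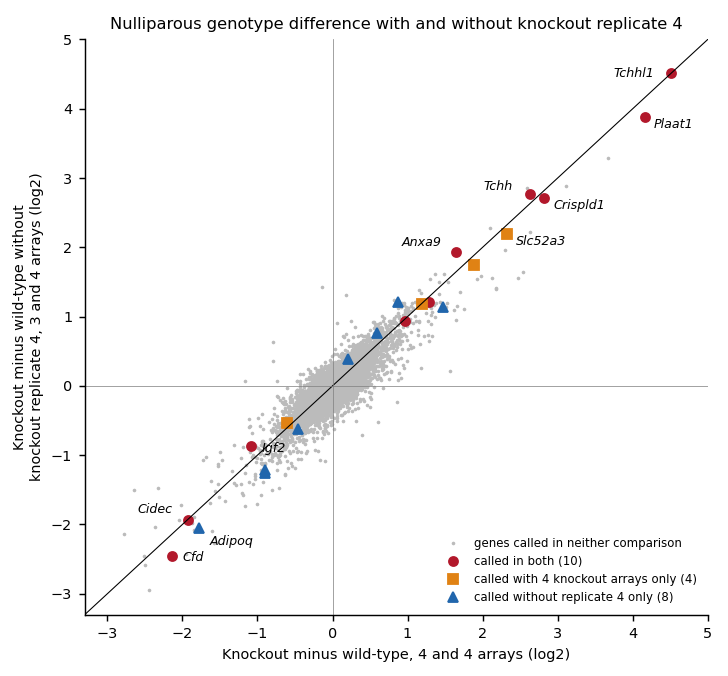
Change of each of the 14058 genes, knockout minus wild-type in log2 units, with all 8 nulliparous arrays (x axis) against the change without knockout replicate 4 (y axis); the line marks equal changes. The 10 genes called in both lie near the line, with Tchhl1 and Plaat1 farthest to the upper right and Cfd farthest to the lower left of the called genes.

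The natriuretic peptide pathway itself held no called gene. Its list of ligands, receptors and processing enzymes had 7 of 10 members tested, 4 of them with a positive change, and a median change of 0.21 (0.07 without knockout replicate 4), against 0.05 (0.04) over all genes tested. The probe of Npr1 gave -3.70, -3.93, -4.15 and -3.87 in the 4 knockouts and -4.23, -3.62, -4.11 and -4.47 in the 4 wild-types. It was well above background on 2 of the 4 knockout and 1 of the 4 wild-type arrays, was not tested, and checks nothing about the genotypes. Nppc, the C-type peptide, and Ostn, a peptide that binds the clearance receptor, were not tested either.

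Among the ligands, Nppa, which encodes atrial natriuretic peptide, gave 9.46, 8.83, 8.33 and 7.78 in the knockouts against 8.46, 7.80, 7.90 and 7.56 in the wild-types. The groups overlapped, and the change of 0.67 ± 0.34 (SE, n = 4 each) was not called (limma, adjusted p = 0.591). Without knockout replicate 4, the lowest of the knockouts, the change was 0.94 ± 0.33 (adjusted p = 0.408 by limma). Nppb, which encodes B-type natriuretic peptide and is a marker of wall stress, gave 4.61, 4.20, 5.39 and 5.08 in the knockouts against 4.12, 4.76, 2.61 and 3.79 in the wild-types. Its change of 1.00 ± 0.39 was not called either (limma, adjusted p = 0.527), and wild-type replicate 3 was the lowest array. Knockout replicate 4 was also the lowest of the 8 arrays for 2 atrial muscle genes. The atrial light chain Myl7 gave -0.11, 0.78, -0.99 and -6.36 in the knockouts against -2.29, -0.99, -1.79 and -1.07 in the wild-types. Sln, the sarcolipin of atrial muscle, gave 0.18, 1.14, 0.38 and -3.97 in the knockouts against -1.17, -0.44, -1.20 and -0.19 in the wild-types. The 10 tested atrial markers, Nppa among them, had a median change of 0.17, or 0.49 without knockout replicate 4, and none was called. On knockout replicate 4, 5 of the 10 were higher than in the mean of the other knockouts. How the other markers bear on the Nppa values was not tested.

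The receptors and enzymes differed by less. Npr2, the receptor of C-type natriuretic peptide, changed by -0.02 ± 0.07 and Npr3, the clearance receptor, by 0.21 ± 0.18. Corin and Furin, proteases that process the peptide precursors, had changes of -0.11 and -0.06, and Mme, the peptide-degrading neprilysin, 0.22. None of these 5 was called, with limma's adjusted p between 0.746 and 0.935. Downstream, 17 of 19 genes of cyclic GMP signalling (guanylyl cyclase subunits, nitric oxide synthases, phosphodiesterases, cyclic GMP-dependent kinase and regulators of G protein signalling) were tested and none was called. Their changes ran from -0.38 to 0.29 with a median of -0.02, and 8 were positive.

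Markers of cardiac enlargement, fibrosis and fuel use were not called in the nulliparous knockouts. For the adult and fetal myosin heavy chains the changes were -0.01 ± 0.13 (Myh6) and -1.09 ± 0.63 (Myh7). Myh7 gave 9.13, 8.65, 6.36 and 5.97 in the knockouts against 8.88, 9.35, 8.63 and 7.64 in the wild-types, so that knockout replicates 3 and 4 lay below every wild-type and the other knockouts among them. Skeletal alpha actin (Acta1) changed by 0.53 ± 0.42 and the stretch-responsive Ankrd1 by 0.24 ± 0.27. With all 8 arrays, Ccn2, a matricellular protein linked to fibrosis, was the one of the 13 markers whose groups did not overlap, against 4.02% of all genes tested. Ccn2 gave 5.07, 4.99, 4.996 and 5.43 in the knockouts against 4.59, 4.68, 4.94 and 3.99 in the wild-types. Its change was 0.57 ± 0.20 (limma, adjusted p = 0.467). The collagen genes Col1a1 and Col3a1 and periostin (Postn) had changes of -0.23, -0.21 and -0.11, and the fuel regulators Pdk4 and Angptl4 0.82 and 0.38. Over the 13 markers limma's adjusted p ran from 0.467 to 0.990. Without knockout replicate 4 it ran from 0.511 to 0.932, and the groups of Ccn2 and Angptl4 did not overlap, against 9.42% of all genes tested. The changes were then 0.47 ± 0.21 for Ccn2, 0.73 ± 0.37 for Angptl4 and -0.58 ± 0.61 for Myh7.

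The gene with the smallest adjusted p was Tchhl1, which encodes trichohyalin-like 1, a fused-type S100 protein of the epidermal differentiation complex. The knockouts gave -1.23, -0.63, -2.07 and -1.30 and the wild-types -6.12, -5.93, -5.54 and -5.69. All 4 knockout arrays and no wild-type array read its probe well above background. The knockout mean of -1.31 was therefore at least 6.05-fold above the wild-type arrays, measured at -5.82 (limma, adjusted p = 2.73e-06, n = 4 each). Such a bound sets the mean of the bright group against the mean, per array, of the lowest signal among probes well above background or of the dim probe's own signal where that is higher. Arrays of the bright group enter at their measured level, and where some were not well above background the bound is approximate. The bound for Tchhl1 was 6.04-fold without knockout replicate 4.

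Tchh encodes trichohyalin, a structural protein of the inner root sheath of hair. The knockouts gave -1.75, -1.66, -2.54 and -2.52 and the wild-types -4.20, -4.85, -5.53 and -4.44. No wild-type array was well above background, so the knockout mean of -2.12 was at least 3.41-fold above the wild-type mean measured at -4.75 (limma, adjusted p = 0.000253, n = 4 each). Both genes lie beside each other on chromosome 3, 71 and 70 genes from Npr1 in the RefSeq gene order.

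Plaat1 gave 0.82, 0.80, 2.14 and 2.37 in the knockouts against -2.40, -2.47, -3.34 and -2.29 in the wild-types. On 3 of the 4 wild-type arrays the probe was well above background. The groups were far apart, although knockout replicates 3 and 4 lay above replicates 1 and 2. The change was 4.16 ± 0.32, or 17.9-fold (limma, adjusted p = 1.5e-05, n = 4 each), and 3.88 without knockout replicate 4.

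Crispld1, which encodes a secreted cysteine-rich protein, gave -3.08, -3.18, -2.39 and -2.44 in the knockouts against -5.37, -6.10, -5.26 and -5.63 in the wild-types. No wild-type array was well above background, and the knockout mean of -2.77 was at least 2.19-fold above the wild-type mean measured at -5.59 (limma, adjusted p = 6.2e-05, n = 4 each). Slc52a3, a riboflavin transporter, gave -4.07, -2.59, -2.47 and -2.51 in the knockouts, 3 of them well above background, against -5.89, -5.19, -4.35 and -5.49 in the wild-types, none of them above it. Knockout replicate 1 was the lowest of the knockouts and the groups did not overlap. The knockout mean of -2.91 was at least 1.99-fold above the wild-type mean measured at -5.23 (limma, adjusted p = 0.0272), and the call was lost without knockout replicate 4 (adjusted p = 0.0539).

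Slc4a8, a sodium-driven bicarbonate exchanger, gave -0.92, -0.69, -0.41 and -0.13 in the knockouts against -2.61, -2.04, -2.27 and -2.77 in the wild-types. It was 3.69-fold higher (change 1.89 ± 0.30; limma, adjusted p = 0.0272), and 0.0548 was the adjusted p without knockout replicate 4. Manba encodes the lysosomal beta-mannosidase and was the steadiest of the called genes among the knockouts, with 1.63, 1.65, 1.57 and 1.63, against 0.56, 0.46, 0.25 and 0.44 in the wild-types. Its change was 1.19 ± 0.19 (limma, adjusted p = 0.0272), and 0.0539 without knockout replicate 4 at the same size of change. Anxa9, an annexin, gave -0.93, -0.81, -1.69 and -2.33 in the knockouts against -2.91, -2.76, -3.78 and -2.86 in the wild-types. Its change was 1.64 ± 0.28 (limma, adjusted p = 0.0416) and 1.94 without knockout replicate 4 (0.00300).

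Actg2, the gamma actin of enteric smooth muscle, had the smallest named rise and a small spread in both groups. It gave -1.40, -1.37, -1.61 and -1.34 in the knockouts against -2.49, -2.36, -2.50 and -2.25 in the wild-types, a change of 0.97 ± 0.11 (limma, adjusted p = 0.000625). The 12 tested markers of smooth muscle cells and pericytes had a median change of 0.07 and none was called. The remaining called gene carries the placeholder name Gm35438 and was named after its values were seen; it rose by 1.28 ± 0.17 (limma, adjusted p = 0.00542).

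Which of these calls held depended on single arrays. Tchhl1, Plaat1, Crispld1, Tchh, Actg2 and Gm35438 were called whichever nulliparous array was left out. Leaving out wild-type replicate 1, 2 or 4 or knockout replicate 3, 1 at a time, left 6 of the 14 calls, and each time all 4 genes that fell were lost. With normexp background correction, which draws dim signals together, the change was 0.48 for Crispld1 (limma, adjusted p = 0.230) and 0.65 for Tchh (0.0961), and both calls were lost.

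**Figure D3:**
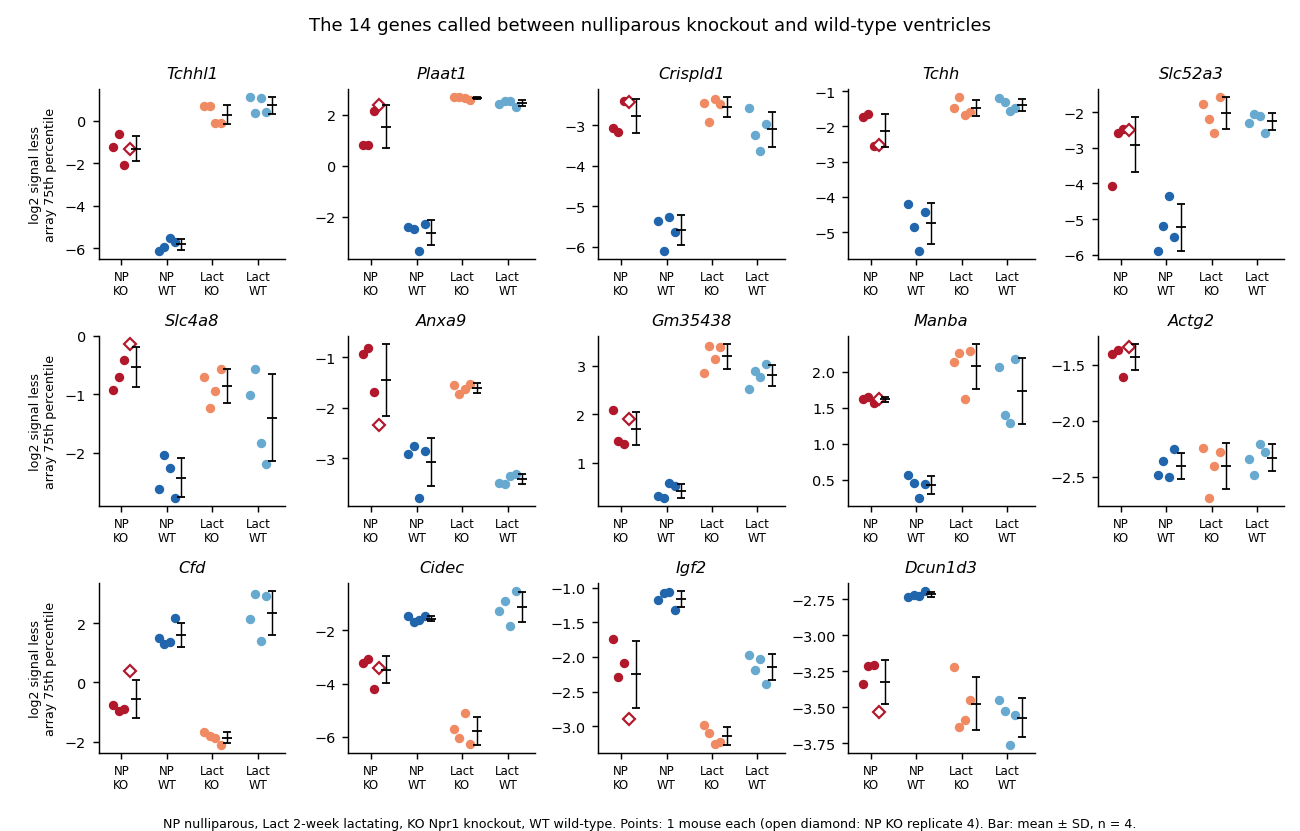
Levels (log2 signal less the array's 75th percentile) of the 14 called genes in nulliparous (NP) knockout and wild-type and in lactating (Lact) knockout and wild-type ventricles, 1 point per mouse, with the mean and SD (n = 4) beside each group; the open diamond is nulliparous knockout replicate 4. For Tchhl1 the nulliparous wild-type arrays lie between -6.12 and -5.54 and all other arrays at -2.07 or above.

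Set beside the lactating arrays, either genotype could be the one that stood apart, and the count for the knockouts changed with knockout replicate 4. With it, for 9 of the 14 called genes (Tchhl1, Plaat1, Crispld1, Tchh, Slc52a3, Gm35438, Manba, Igf2 and Dcun1d3) the 4 nulliparous wild-type arrays lay all above or all below the other 12 arrays of the series. Plaat1, for example, ran from 2.60 to 2.71 in lactating knockouts and from 2.30 to 2.56 in lactating wild-types. Tchhl1 gave 0.69, 0.71, -0.12 and -0.09 in lactating knockouts and 1.12, 0.39, 1.06 and 0.40 in lactating wild-types, all above the nulliparous knockouts. Over all genes the nulliparous wild-type arrays stood apart in this way for 306 (2.18%), of which 264 were higher in the knockouts and 42 lower. On each slide these arrays sat at their group's own places, so place and group cannot be told apart.

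The nulliparous knockouts stood apart from the other 12 arrays for 38 genes (0.27%), 32 higher and 6 lower than the nulliparous wild-types, and Actg2 was the called gene among them. Actg2 ran from -2.69 to -2.24 in lactating knockouts and from -2.49 to -2.21 in lactating wild-types, so the rise was seen in the nulliparous mice. Without knockout replicate 4, the 3 other knockouts stood apart from the same 12 arrays for 574 genes (4.08%), 428 higher and 146 lower. The 4 nulliparous wild-types then stood apart from the other 11 arrays for 329 genes (2.34%). A group of 3 arrays stands apart more often by chance than a group of 4, so these counts are not compared. Of the 18 genes called without that array, the wild-types stood apart for 7 and the knockouts for 6, with the same unlike group sizes.

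The test of the difference between the nulliparous and the lactating genotype change was past the threshold for 13 genes (0.0925%). The nulliparous change exceeded the lactating one by 3.96 for Plaat1 (limma, adjusted p = 0.00169) and by 1.04 for Actg2 (0.0137). It was also larger for Tchhl1 (8.31e-05), Tchh (0.00931) and Crispld1 (0.0184), with no size given because no nulliparous wild-type array read these probes above background. Of the 14 called genes 10 had a lactating change of the same sign and 4 were also called there: Anxa9, Cfd, Cidec and Igf2, where 28 genes were called in all (0.199%). The nulliparous and the lactating genotype comparisons share no arrays, but the same fit gave both, with a shared spread per gene.

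The genes that fell were led by 2 adipocyte genes. Cfd encodes complement factor D (adipsin), a protease that fat cells secrete. The knockouts gave -0.75, -0.97, -0.89 and 0.39 and the wild-types 1.51, 1.30, 1.35 and 2.18. Its change was -2.14 ± 0.35, a 4.41-fold lower signal (limma, adjusted p = 0.0281, n = 4 each), and knockout replicate 4 was the highest of the knockouts. Without that array the change was -2.45 ± 0.32 (limma, adjusted p = 0.00569).

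Cidec, which encodes a lipid droplet protein that enlarges the droplets of fat cells, gave -3.22, -3.06, -4.19 and -3.43 in the knockouts against -1.47, -1.68, -1.61 and -1.47 in the wild-types. The wild-types lay close together and every knockout, 3 of them well above background, lay below them. Its change was -1.92 ± 0.30, 3.78-fold lower (limma, adjusted p = 0.0264), and -1.94 without knockout replicate 4 (0.0444). A second, dimmer probe of the gene was not above background on any nulliparous array, and the mean of both probes changed by -1.14 without a call (limma, adjusted p = 0.160).

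Among the 12 adipocyte markers 10 were tested, and 5 of them had every knockout below every wild-type: Cfd, Cidec, Car3, Adipoq and Plin1. Cfd and Cidec were called with all arrays, and Adipoq joined them without knockout replicate 4. The shares of all genes with every knockout below every wild-type were 0.804% and, without knockout replicate 4, 1.95%. The median change of the 10 was -1.16, or -1.31 without that array, against 0.05 and 0.04 over all genes tested. Cidec, Adipoq and Plin1 passed the filter on background through the wild-type groups, where they are high, so these counts and medians are a description. With a filter on all 16 arrays, which leaves out those 3 genes and Car3 but keeps Cfd, the median of the list was 0.15. Adipoq, which encodes the fat cell hormone adiponectin, gave -4.02, -3.91, -4.68 and -3.09 in the knockouts against -1.89, -2.13, -2.56 and -1.997 in the wild-types. The change was -1.78 ± 0.34 (limma, adjusted p = 0.0678). When knockout replicate 4 was left out, and no knockout array was well above background, the wild-types were at least 3.98-fold above the knockouts (adjusted p = 0.0230).

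Car3, carbonic anhydrase 3, gave -0.98, -0.60, -1.29 and -0.75 in the knockouts against 1.08, 1.15, 0.33 and 1.17 in the wild-types. Its change of -1.84 ± 0.34 missed the threshold (limma, adjusted p = 0.0678). Plin1, the perilipin that coats fat cell lipid droplets, gave -3.93, -4.26, -5.31 and -4.16 in the knockouts against -2.87, -2.72, -3.54 and -2.48 in the wild-types, a change of -1.52 ± 0.37 (adjusted p = 0.252). Both genes thus had separate groups without a call.

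The other 5 tested members were not called and their groups overlapped. Retn, the adipocyte hormone resistin, changed by -0.81 ± 0.48. Fabp4, a fatty acid carrier that endothelial cells also express and that the endothelial list holds too, changed by 0.16 ± 0.14. The lipase gene Lipe changed by 0.33, Cidea by 0.13 and Pnpla3 by 0.20. Lep and Ucp1, which define fat cells and brown fat cells, were not above background on any of the 16 arrays. The mean level over the 10 genes was -0.92, -0.85, -1.05 and -0.52 in the knockouts against 0.14, 0.05, -0.11 and 0.25 in the wild-types. In whole tissue, fewer fat cells and less RNA of these genes per cell cannot be told apart, and how much fat each sample held was not tested.

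**Figure D4:**
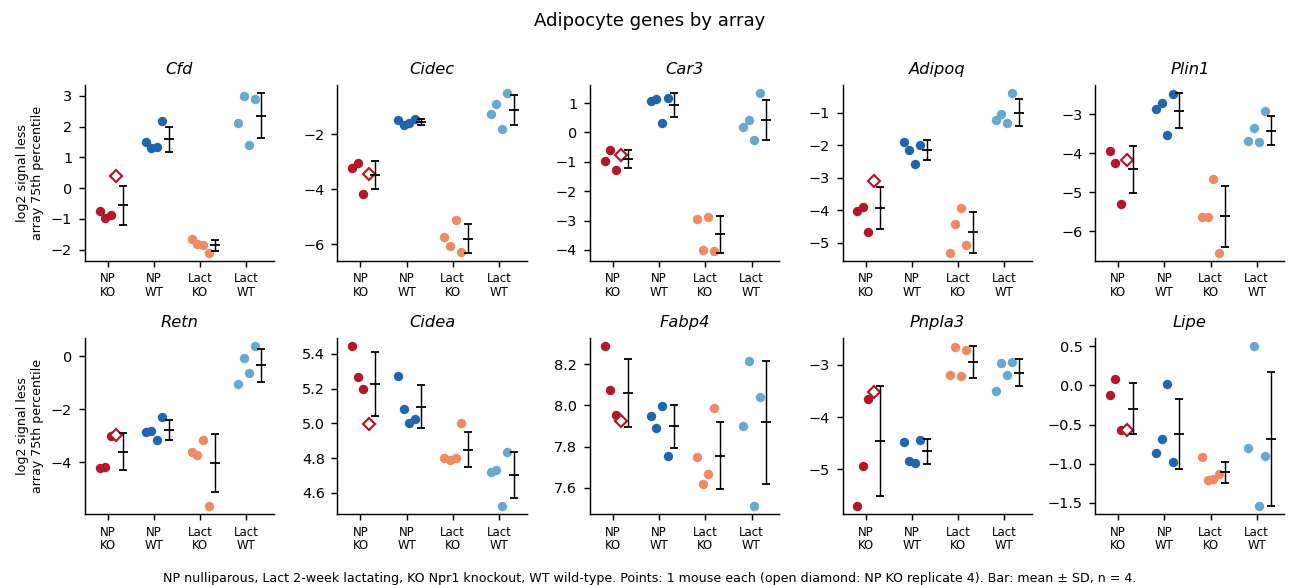
Levels of the 10 tested adipocyte genes in nulliparous (NP) and lactating (Lact) knockout and wild-type ventricles, 1 point per mouse with mean and SD (n = 4), ordered from the most negative nulliparous change. For Cfd, Cidec, Car3, Adipoq and Plin1 every nulliparous knockout lies below every nulliparous wild-type, and the lactating groups do not overlap either.

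In lactating mice the same 5 genes also had every knockout below every wild-type. Cfd gave -1.67, -1.80, -1.86 and -2.10 in lactating knockouts against 2.12, 2.98, 1.41 and 2.90 in lactating wild-types. For Cidec the 4 lactating knockouts, none above background, gave -5.72, -6.06, -5.10 and -6.28 against -1.26, -0.90, -1.82 and -0.51 in lactating wild-types. The Cidec genotype change was less negative in nulliparous than in lactating mice (limma, adjusted p = 0.0180). Over all genes, 52 (0.37%) had genotypes that did not overlap in either state with the same direction, and these held Anxa9, Igf2 and Plaat1 besides the 5 adipocyte genes.

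Pck1 encodes an enzyme that makes the glycerol backbone of stored fat in fat cells and glucose in liver. It gave -4.60, -3.71, -4.30 and -2.86 in the knockouts against -2.56, -2.81, -2.38 and -2.91 in the wild-types. Knockout replicate 4 lay within the wild-type range and the other knockouts below it. The change was -1.20 ± 0.34 with all arrays (limma, adjusted p = 0.319) and -1.54 ± 0.29 without that array (0.0548).

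Promoter windows of 4 of the 5 adipocyte genes whose groups did not overlap, Cfd, Cidec, Plin1 and Adipoq but not Car3, are shown because fat cell genes are known targets of PPAR gamma and C/EBP factors. Windows run from 250 bases before to 50 bases after the transcript start, from RefSeq on GRCm38.p6, and are given 5′ to 3′ on the gene's strand. Capitals mark matches on either strand to AGGTCA (a part of the PPAR element), the C/EBP core TTGCNNAA, the CCAAT box and the TATA box TATAAA. Cfd lies at chr10:79890603-79890902 (plus strand), Cidec at chr6:113434715-113435014 and chr6:113435711-113436010 (minus strand, 2 starts), Plin1 at chr7:79732727-79733026 (minus strand) and Adipoq at chr16:23146286-23146585 (plus strand).
Cfd: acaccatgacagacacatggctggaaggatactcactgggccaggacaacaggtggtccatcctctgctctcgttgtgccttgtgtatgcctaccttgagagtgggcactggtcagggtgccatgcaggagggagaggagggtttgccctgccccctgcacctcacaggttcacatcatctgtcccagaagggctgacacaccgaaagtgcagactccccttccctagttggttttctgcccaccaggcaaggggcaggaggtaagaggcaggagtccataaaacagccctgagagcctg
Cidec start A: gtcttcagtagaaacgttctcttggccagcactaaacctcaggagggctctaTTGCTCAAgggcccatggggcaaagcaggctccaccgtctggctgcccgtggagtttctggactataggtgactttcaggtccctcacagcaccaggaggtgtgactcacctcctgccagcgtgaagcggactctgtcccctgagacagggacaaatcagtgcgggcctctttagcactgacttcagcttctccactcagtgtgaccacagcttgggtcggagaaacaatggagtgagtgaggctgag
Cidec start B: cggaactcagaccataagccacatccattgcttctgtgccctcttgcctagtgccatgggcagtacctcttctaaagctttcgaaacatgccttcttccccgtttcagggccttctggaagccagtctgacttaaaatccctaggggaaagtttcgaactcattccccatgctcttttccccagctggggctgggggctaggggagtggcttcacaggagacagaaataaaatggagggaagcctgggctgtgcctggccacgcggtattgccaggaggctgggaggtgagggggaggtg
Plin1: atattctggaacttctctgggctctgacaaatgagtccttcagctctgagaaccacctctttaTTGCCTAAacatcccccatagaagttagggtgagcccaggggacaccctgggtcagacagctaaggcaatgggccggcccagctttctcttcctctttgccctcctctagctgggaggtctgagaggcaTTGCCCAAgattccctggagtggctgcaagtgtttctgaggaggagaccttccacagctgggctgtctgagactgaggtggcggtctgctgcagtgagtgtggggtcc
Adipoq: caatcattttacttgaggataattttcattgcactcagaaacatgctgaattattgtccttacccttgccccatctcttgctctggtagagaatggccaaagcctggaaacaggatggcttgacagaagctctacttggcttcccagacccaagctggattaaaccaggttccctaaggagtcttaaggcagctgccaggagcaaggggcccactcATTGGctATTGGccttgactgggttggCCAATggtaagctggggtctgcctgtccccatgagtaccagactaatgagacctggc

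The C/EBP core matched in 1 Cidec window and in the Plin1 window, and the CCAAT box in the Adipoq window. The Cfd window and the other Cidec window held none of the 4 motifs. Among 32851 mouse promoter windows of the same length, 10.8% held the C/EBP core, 37.4% the CCAAT box, 16.3% the letters AGGTCA and 13.6% the TATA box. A match is a description of the letters and no measure of binding.

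Igf2, the insulin-like growth factor that is imprinted and mainly fetal, gave -1.74, -2.29, -2.09 and -2.89 in the knockouts against -1.18, -1.08, -1.06 and -1.33 in the wild-types. Its change was -1.09 ± 0.18 (limma, adjusted p = 0.0375) and -0.87 ± 0.13 without knockout replicate 4 (0.0230), the lowest of the knockouts. In the lactating mice it gave -2.98, -3.10, -3.25 and -3.23 in knockouts against -1.98, -2.19, -2.03 and -2.39 in wild-types, a change of -0.996 (limma, adjusted p = 0.0422). Of 30 tested growth factor genes Igf2 was the only one called with either set of arrays, and their median change was -0.09.

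Dcun1d3 had the smallest called change. It gave -3.34, -3.21, -3.21 and -3.53 in the knockouts against -2.73, -2.72, -2.73 and -2.69 in the wild-types. The wild-types were nearly equal, and the change was -0.61 ± 0.10, 1.52-fold lower (limma, adjusted p = 0.0377). The call was lost without knockout replicate 4 (limma, adjusted p = 0.0548) and also without each of the other 7 nulliparous arrays in turn.

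A further 8 genes were called only when knockout replicate 4 was left out. Besides Adipoq these were Wnt9b (1.22), Lrrc27 (1.14), Rsph4a (0.77) and Pabpn1 (0.39) with a rise, and Tdrkh, Zfp560 and 6030458C11Rik (-0.62) with a fall. Pabpn1, a nuclear poly(A)-binding protein, gave 5.66, 5.57, 5.54 and 4.87 in the knockouts against 5.19, 5.22, 5.26 and 5.14 in the wild-types. Knockout replicate 4 lay below every wild-type and the other 3 knockouts above, and the change of 0.39 ± 0.06 (limma, adjusted p = 0.0230) became 0.21 with that array (0.651). Wnt9b, a secreted Wnt ligand, gave -1.90, -2.28, -1.81 and -3.35 in the knockouts against -3.47, -3.03, -2.996 and -3.36 in the wild-types, with replicate 4 again at the wild-type level. Tdrkh, of the piRNA pathway, and Zfp560 were above background on no knockout array other than replicate 4 and on 2 of the 4 wild-type arrays. With the remaining knockouts set to the lowest signal read well above background, the wild-type mean of each was 1.30-fold higher. As the other wild-type arrays were not above background either, this is no lower bound (limma, adjusted p = 0.0230 for Tdrkh and 0.0266 for Zfp560). The 2 Lrrc27 probes disagreed: with all 8 arrays the one that stood for the gene changed by 1.47 and the other by -0.07. The name 6030458C11Rik is a placeholder and was named after its values were seen.

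Among genes that missed the threshold, Prim2, a subunit of DNA primase, gave -2.52, -5.09, -1.23 and -2.08 in the knockouts against -6.07, -5.50, -5.82 and -5.96 in the wild-types. Its probe was well above background on 3 knockout and no wild-type arrays, with knockout means of -2.73 at least 2.26-fold above wild-type arrays measured at -5.84 (limma, adjusted p = 0.0532). Cyb5a, cytochrome b5, gave 5.11, 5.24, 5.11 and 5.30 in the knockouts against 4.69, 4.61, 4.67 and 4.39 in the wild-types (change 0.60 ± 0.11, adjusted p = 0.0567 by limma). Tmem37, a calcium channel subunit-like protein, gave 0.96, 1.02, 0.93 and 1.43 in the knockouts against 2.51, 3.23, 2.99 and 3.08 in the wild-types. Its change of -1.87 ± 0.41 was large beside the SDs of the nulliparous knockouts (0.23) and wild-types (0.31), but limma's adjusted p was 0.161. The fit takes 1 spread per gene over all 4 groups, and the SDs were 0.97 in lactating knockouts and 0.74 in lactating wild-types. Neither Cyb5a nor Tmem37 had overlapping groups.

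Chromosome 3, which carries Npr1, held 4 of the 14 called genes: Tchhl1, Tchh, Anxa9 and Manba. It held 670 of the genes tested (4.77%). Tchhl1 and Tchh lie 71 and 70 genes from Npr1, Anxa9 117 and Manba 444. Within 100 genes on either side of Npr1, 119 genes were tested and 2 were called with all arrays, and Tdrkh, 87 genes away, was added without knockout replicate 4. Groups did not overlap for 3.36% of those 119 genes, for 5.22% of the 134 tested among the next 100 genes on either side, for 6.34% of the 142 among the 100 after those and for 3.97% of the 252 beyond, against 4.02% of all genes tested. Without knockout replicate 4 these shares were 12.6%, 9.7%, 9.86% and 7.54% by distance, against 9.42% of all genes, so the nearest genes had the lowest share with that array and the highest without it. Among 25 tested members of the S100 family and genes near Npr1, none was called and the median change was 0.04. S100a8 and S100a9, the neutrophil calprotectin genes on the same chromosome, had changes of -1.43 ± 0.68 and -1.95 ± 0.53 (limma, adjusted p = 0.576 and 0.315), and the 9 tested markers of neutrophils and mast cells had 2 positive changes and no call. The S100a9 value of wild-type replicate 3 was an outlier spot and stayed out of its fit. Knockout mice carry the altered allele together with a stretch of chromosome 3 around it, whose extent is not known here. For genes on that stretch the lost receptor and the chromosome that carries the allele cannot be told apart.

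St7l, 251 genes from Npr1, was the one named gene whose genotype change was opposite in sign and called in lactating mice. It gave 0.51, 0.55, 1.05 and 1.17 in nulliparous knockouts against 1.35, 1.29, 1.56 and 1.28 in nulliparous wild-types (change -0.55 ± 0.14; limma, adjusted p = 0.261). In lactating mice it gave 1.34, 1.59, 1.63 and 1.32 in knockouts against 0.39, 0.31, 0.43 and 0.36 in wild-types (limma, adjusted p = 0.00181). The nulliparous change minus the lactating one was -1.65 (limma, adjusted p = 0.00240).

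Of the 41 gene lists, the adipocyte and growth factor lists held the called members. Over all genes 62.7% of changes were positive (60.1% without knockout replicate 4), so a positive median of a list is read against that share. All 46 tested genes of the respiratory chain and ATP synthase had positive changes, with a median of 0.13. Knockouts lay above wild-types without overlap for 5 of them (10.9%, against 3.22% of all genes), among them Ndufa9 with 7.22, 7.30, 7.43 and 7.29 in the knockouts against 7.15, 7.12, 6.96 and 7.12 in the wild-types. Without knockout replicate 4, 45 of 46 were positive with a median of 0.14, and 12 lay above without overlap (26.1%, against 7.47% of all genes). No member was called, and without wild-type replicate 3, the array most often lowest, 37 of 46 were positive with a median of 0.08, against 54.6% and 0.02 over all genes. Genes of fatty acid oxidation and PPAR targets had 32 of 37 positive changes and a median of 0.17, and cytosolic ribosomal proteins 37 of 44 and 0.08. Without knockout replicate 4 the fatty acid list had 35 of 37 and 0.20, and the ribosomal list 41 of 44 and 0.11. Without wild-type replicate 3 the fatty acid list had 32 of 37 and 0.22, and the ribosomal list 27 of 44 and 0.03. In neither list was a gene called.

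Immediate early genes had 23 of 26 positive changes and a median of 0.35, and 22 of 26 and 0.51 without knockout replicate 4. Without knockout replicate 3 they had 18 of 26 and 0.05. Interferon response genes had 5 of 30 positive changes and a median of -0.19, with 2 of 30 and -0.31 without knockout replicate 4. The 6 tested mesothelial and epicardial markers were all positive, with a median of 0.64 (0.60 without knockout replicate 4), while Msln, which defines mesothelium, gave -4.41, -4.08, -2.74 and -1.45 in the knockouts against -6.24, -4.00, -5.07 and -5.88 in the wild-types. None of these genes was called.

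Lists of proliferating cells and macrophages turned on knockout replicate 4. All 27 proliferation genes tested were higher on that array than in the mean of the other knockouts, by a median of 1.54, and the list's median genotype change was 0.05 with it and -0.31 without it. All 18 macrophage markers were likewise higher there, by a median of 0.88, and their median change was 0.12 with it and -0.04 without it. Ventricular cardiomyocyte, fibroblast and endothelial markers had median changes of 0.09, 0.04 and 0.12 with no call, and Myh6, a defining gene of ventricular muscle, ran from 10.41 to 11.01 in the knockouts and from 10.58 to 10.92 in the wild-types. The T cell, B cell and NK list (9 tested), the erythroid list (7), the neural and Schwann list (8) and the skeletal muscle list (7) had medians between -0.10 and 0.09 with no call.

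**Figure D5:**
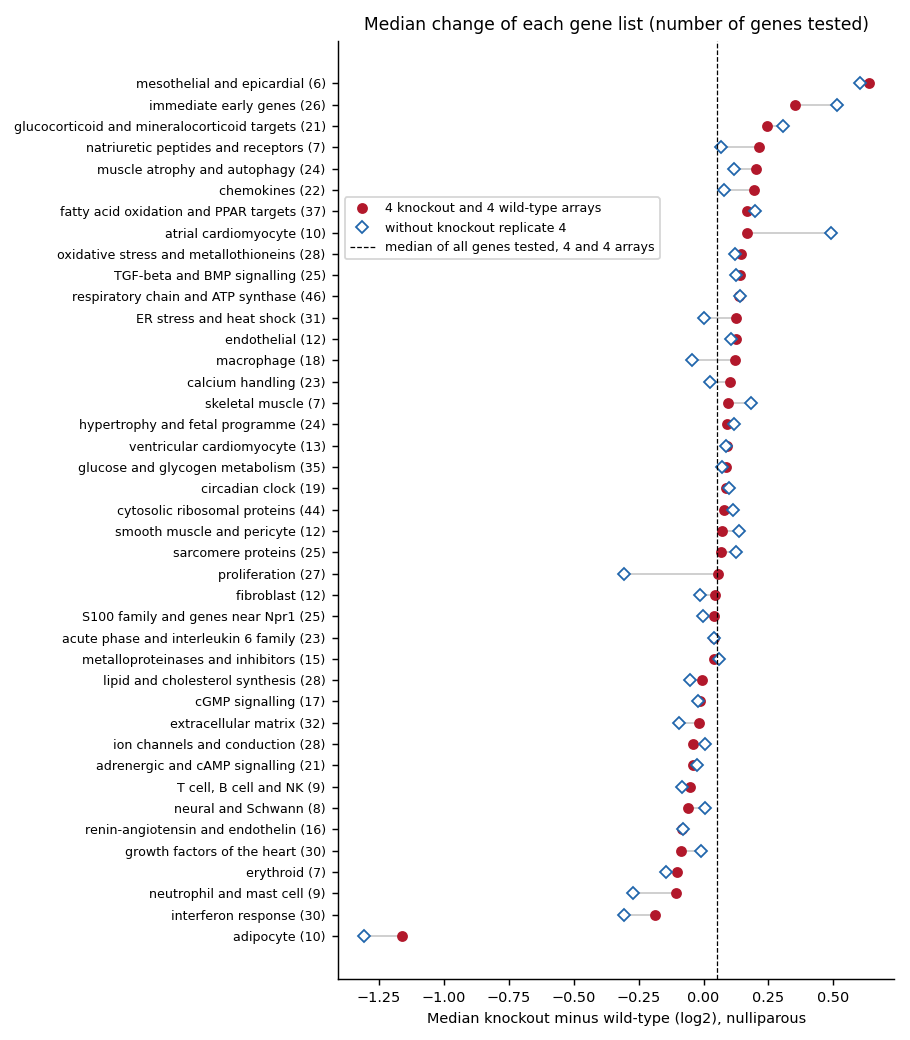
Median change (knockout minus wild-type, log2, nulliparous) of each of the 41 gene lists, with all 8 arrays (filled circles) and without knockout replicate 4 (open diamonds); the dashed line is the median of all genes tested and numbers in brackets are genes tested. The adipocyte list lies lowest at -1.16 and the mesothelial list highest at 0.64, and the proliferation list lies at 0.05 with and -0.31 without knockout replicate 4.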

How the data were processed

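Per the submitters' processing notes, spot signals were read with Agilent Feature Extraction 10.7.3.1. The deposited scanner values are linear intensities, background-subtracted within an array and not scaled across arrays, per the file headers. A deposited value table of the authors holds log2 values. Compared with the scanner values, each of its columns followed the log2 signal minus that array's 75th percentile, centred on the nulliparous wild-type mean (r = 1), so scale, centring and direction are known. It served as an alternative.

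Control spots and outlier values were dropped (59305 of 62976 spots were not controls), spots were averaged into 55681 probes, and the 75th percentile over those probes was subtracted on the log2 scale. Names came from RefSeq accessions in a GRCm38.p6 gene table (28026 probes, 50.3%). The array headers name build mm9, so no probe positions are printed; promoter windows have their own GRCm38.p6 coordinates. The brightest probe stood for a gene, the background filter removed 7096 genes, and no probe was saturated. The model had 4 group means over all 16 arrays and was fitted in R 4.3.3 by limma 3.58.1 with empirical Bayes, on 12 residual degrees of freedom (11 without nulliparous knockout replicate 4). The packages data.table (version 1.17.8) and jsonlite 2.0.0 read the files and matplotlib 3.10.9 drew the figures. The fit was tested on simulated data. The number of arrays limits the precision.

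In each group replicates 1 and 2 were on slide 1 (scan 1) and replicates 3 and 4 on slide 2 (scan 2). The labels state no pairing of knockout and wild-type arrays. Deviations of same-numbered arrays correlated at 0.106, 0.0274, -0.00865 and -0.02, and those of arrays with different numbers at -0.0798 to 0.104. These correlations cannot exclude a pairing, and the main fit used none. Alternatives were normexp correction (offset 50, on the median spot signal instead of the planned mean signal, which was not used here), quantile normalization, median centring, 3 other filters, the mean of probes, the nulliparous groups alone, trend with robust, array weights, slide or replicate as a block, each slide alone, the authors' table, and leaving out each nulliparous array. Leaving out wild-type replicate 3 or knockout replicate 3 for the lists was chosen after seeing the data.

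Named genes were the natriuretic peptide list, 13 markers, up to 12 called genes per direction by size of change among those without overlap (filled by smallest p), with and without replicate 4, called list members, called genes within 100 genes of Npr1, and genes called in both states, without placeholders. Members, lists and rules were chosen with earlier results of these data known.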

Additional observations from a re-analysis of the deposited data

Results flagged for a closer look

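In 7 of 114 groups of 4 nulliparous arrays of named genes, 1 array lay far from the others, with a gap over the group's range above Dixon's critical value for 4 samples. Chance flags about 1 in 20 groups (6.14% were flagged here). Knockout replicate 4 was the highest knockout for Smco4 (gap over range 0.983) and Cfd (0.832) and the lowest for Pabpn1 (0.856). Knockout replicate 1 was the lowest knockout for Slc52a3 (0.923) and Acta1 (0.865). Wild-type replicate 3 was the lowest wild-type for Car3 (0.898) and Anxa9 (0.858). Smco4 had levels of 0.21, 0.22, 0.22 and 0.85 in the knockouts against 1.49, 1.28, 1.66 and 0.90 in the wild-types.

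For 8 named genes the genotype change differed between nulliparous and lactating mice in the interaction term of limma. The nulliparous change minus the lactating change was 4.96 for Tchhl1 (adjusted p = 8.31e-05), 3.96 for Plaat1 (0.00169), 2.72 for Tchh (0.00931), 2.26 for Crispld1 (0.0184) and 1.04 for Actg2 (0.0137). For Tchhl1, Tchh and Crispld1 no nulliparous wild-type array was above background, so these values are fitted against background and are neither sizes nor bounds. For Plaat1 the nulliparous wild-type arrays were the low ones, and for Actg2 the nulliparous knockout arrays were the high ones. It was 2.75 for Cidec (0.0180) and 2.84 for Pck1 (0.0309), both with the more negative change in lactating mice, where no knockout array was above background, so these values are likewise fitted against background. St7l, at -1.65 (0.00240), had a negative nulliparous change that was not called and a positive lactating change that was called.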

How the results depend on the processing

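With all 8 arrays 14 genes were called. The count was 7 with normexp background correction, 6 with no filter, 5 with a filter on all 16 arrays, 256 with array weights, 9 with a replicate block and 6 within slide 1, and 7 to 20 when 1 array was left out (7 without wild-type replicate 1, 2 or 4, 8 without knockout replicate 3 and 20 without wild-type replicate 3). Without knockout replicate 4, 18 genes were called, against 7 with normexp, 8 with no filter, 7 with the filter on all 16 arrays, 298 with array weights, 6 within slide 1 and 0 within slide 2, where 1 knockout array is left, assumed to vary like the other groups, and limma gave 1071 genes at an unadjusted p under 0.05. Leaving out 1 further array gave 8 (wild-type replicate 1) to 41 (wild-type replicate 3), with 10 for wild-type replicate 4. For the interaction, 13 genes were called, against 6 with the filter on all 16 arrays, 77 with array weights, 6 within slide 1, 1 within slide 2 and 10 to 20 when 1 array was left out (20 without knockout replicate 4). Why these counts moved was not tested. Median centring, which moved the median change of all genes to 0.126, gave 12 higher and 2 lower genes, against 10 higher and 4 lower. The replicate block left 9 of 14 calls, and the labels state no pairing by number.

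Of the 14 called genes none changed sign in the 21 to 23 alternatives in which it was tested, and Tchhl1 and Plaat1 kept their call in all 22 of theirs; the filter on all 16 arrays left both out. Of 43 named genes that were not called, 13 changed sign in some alternative, and 21 of 41 list medians moved by more than the spread between replicates in some alternative. The adipocyte median was 0.15 with the filter on all 16 arrays, which left out Cidec, Adipoq, Plin1 and Car3, and -1.52 to -0.28 in the other alternatives. Signals near background and groups of 4 mice limit these results: the wild-type levels of Tchhl1, Tchh, Crispld1 and Slc52a3 are bounds.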

Other observations

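Stbd1, which encodes a glycogen-binding protein, lay at a high or a low level on different arrays of the same group, in every group but the nulliparous wild-types. It was picked after its values were seen. It gave 1.37, 1.29, -3.303 and 1.33 in nulliparous knockouts against -3.98, -2.93, -4.25 and -2.83 in nulliparous wild-types. In lactating mice it gave 1.67, 1.80, -2.56 and -2.30 in knockouts against 1.26, -2.21, 1.94 and 2.27 in wild-types. The nulliparous change was 3.67 ± 1.28 (limma, adjusted p = 0.459), so a change of that size was not called beside a spread this wide within groups.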
